A study of Mus musculus with 100 samples.

Results

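A set of 8 neural crest genes was followed through 37 RNA tables of a mouse study of the histone methyltransferases MLL3 and MLL4: Sox10, Sox9, Foxd3, Snai1, Snai2, Twist1, Erbb3 and Ednrb. They were chosen by name, with earlier results of these data known, and they are 8 of the 23109 gene-level entries in the tables. Each was read from its transcript with the most reads over the 37 libraries. Levels are given as CPM, the reads of that transcript scaled to 1 M reads over all gene-level entries of the library.

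The study set cells and embryos whose Mll4 carries a knock-in allele (KI) aimed at the enzyme's methyltransferase activity against references without that Mll4 allele. KI embryos were Mll3flox/KI;Mll4flox/KI;Sox2-Cre and control embryos were Mll3flox/KI;Mll4flox/+;Sox2-Cre, with 3 libraries of each at embryonic days 8.5 (E8.5) and 9.5 (E9.5). Sox2-Cre acts in the epiblast and its descendants, and both embryo groups carried it together with the same floxed and KI alleles of Mll3. Floxed alleles are cut by Cre, so those of both embryo groups cannot be taken as intact there. The embryo contrast is then a KI against a normal Mll4 allele, each beside a floxed allele exposed to Cre. How complete the cut was is not known here. All cultured cells lacked Mll3, and differed in Mll4: flox cells were Mll3-/-;Mll4flox/flox and KI cells Mll3-/-;Mll4KI/KI, so no cultured group had intact Mll3. The KI cells were 2 clones, numbered 27 and 48, with 1 library of each per time point. Neural cultures were made from embryoid bodies (EBs) treated with retinoic acid and replated, and were read at day 8 (D8), as progenitors, and at day 16 (D16), as neurons, with 2 flox libraries a day. EBs without neural induction were read as embryonic stem cells (ESCs, day 0) and at days 4 and 10, with 1 flox library a day. Trophectoderm-type cultures (TE, day 6) carried a doxycycline-inducible CDX2 lentivirus, and extraembryonic endoderm cultures (ExEn) were read at day 5, each with 2 flox libraries. Nothing in the sources used here says that libraries of 1 group came from separate cultures, so p-values there measure the spread between libraries, which may be technical. For the KI cultures that spread is between the 2 clones. Groups are called separate where their libraries did not overlap. With 2 or 3 libraries a group this can occur without a difference, and the share of all genes doing so was not counted.

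The neural crest arises at the border of the neural plate, where its cells lose their epithelial contacts, leave the neural tube and migrate. They give rise to peripheral neurons and glia, melanocytes and much of the skeleton and connective tissue of the face. Foxd3, Sox9 and Sox10 are transcription factors that specify crest cells, Snai1, Snai2 and Twist1 control the epithelial to mesenchymal transition, and Erbb3 and Ednrb are receptors for neuregulin and endothelin signals met during migration. None of the genes is limited to the crest: Foxd3 is also expressed in pluripotent cells, Sox9 in neural stem cells and cartilage, Sox10 in oligodendrocytes, Twist1 and the Snail genes in mesoderm, Erbb3 in epithelia and Ednrb in radial glia and astrocytes. These are bulk RNA libraries, in which fewer cells of a type and less RNA per cell cannot be told apart.

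Depth was 20.1 to 26.9 M gene-level reads per library in the embryos, 39.0 to 59.9 M in the neural cultures, 18.9 to 25.8 M in the EB course and 19.6 to 27.6 M in TE and ExEn, so 3 reads stood for 0.05 to 0.159 CPM. A KI allele is not a deletion, and the level of its transcript does not check a label. Group means of Kmt2c, which encodes MLL3, lay between 27.6 and 94.8 CPM, and those of Kmt2d, which encodes MLL4, between 150 and 324 CPM. By edgeR, Kmt2c was higher in KI at E9.5 (0.34, adjusted p = 0.0162) and in TE (0.52, adjusted p = 0.00518), and Kmt2d was higher in TE (0.35, adjusted p = 0.000145) and lower in ExEn (−0.20, adjusted p = 0.0155). Kmt2c was also read in the cultured cells labelled Mll3-/-, and as the sources used here do not give the deleted part, a count over the whole transcript does not check that label either.

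The 250 bases upstream of the annotated start are shown for Snai1, which had the largest KI difference of the 8 genes in neural progenitors, and Foxd3, which had it in TE. The promoter table, from RefSeq on build GRCm38.p6, held 4 of the 8 genes, also Twist1 and Ednrb. The start used for Ednrb lies inside the annotated bounds of the gene, so its window is not upstream of the whole gene and is not printed. Sequences read 5′ to 3′ on the strand of the gene, and capitals mark each match to the E-box CANNTG, the core motif bound by the Snail zinc-finger factors and by Twist and other basic helix-loop-helix factors.
Snai1 (chr2:167537945-167538194, plus strand): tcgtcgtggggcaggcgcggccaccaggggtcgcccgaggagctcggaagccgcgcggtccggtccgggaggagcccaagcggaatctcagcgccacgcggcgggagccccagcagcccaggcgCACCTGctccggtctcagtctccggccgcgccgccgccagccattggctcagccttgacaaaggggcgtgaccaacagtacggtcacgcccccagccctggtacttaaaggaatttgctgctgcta
Foxd3 (chr4:99656049-99656298, plus strand): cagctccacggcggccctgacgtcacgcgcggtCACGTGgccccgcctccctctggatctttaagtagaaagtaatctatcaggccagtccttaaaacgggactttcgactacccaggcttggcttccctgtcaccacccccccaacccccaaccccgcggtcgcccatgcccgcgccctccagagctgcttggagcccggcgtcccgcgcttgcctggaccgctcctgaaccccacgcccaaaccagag
Motifs were searched as letters on both strands. The Snai1 promoter held 1 E-box, 126 bases upstream of the start, which read on the other strand is CAGGTG, the form preferred by Snail proteins, and 1 match to the SOX motif ACAAAG 69 bases upstream. The Foxd3 promoter held 1 E-box, 217 bases upstream, of another form. No match to either motif lay in the window of Twist1. Over the 32851 promoters of the same length in the table, CANNTG was in 66.2%, CAGGTG, which is one of its forms, in 17.2% and ACAAAG in 16.5%. The Snai1 window had 70.0% G+C and 27 CpG dinucleotides and the Foxd3 window 65.6% and 21, against medians of 52.4% and 6 over all promoters. These matches describe the letters and not a site in use.

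In embryos all 8 genes were read at 10.0 CPM or more in every library, and the KI groups differed from controls in 3 of them: Snai2 was higher at both stages, Ednrb at E8.5 and Erbb3 at E9.5. Per length of transcript, by the deposited RPKM, Twist1 was the most abundant of the 8 in E8.5 controls at 72.8 RPKM, followed by Snai1 at 22.8, Sox10 at 17.3, Sox9 at 7.96, Foxd3 at 5.76, Snai2 at 4.44, Ednrb at 3.14 and Erbb3 at 2.29. The plot of embryo levels shows each library.

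**Figure D1:**
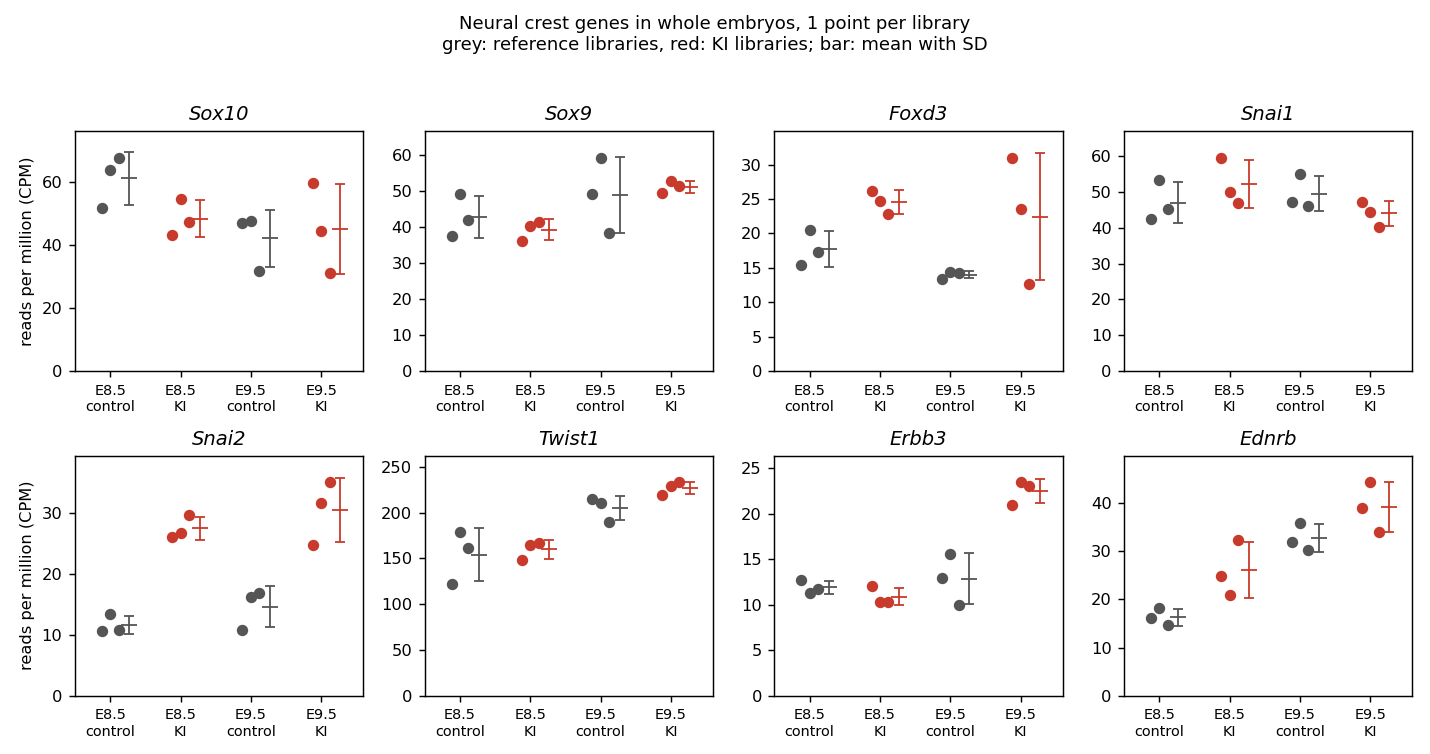
Level of each gene (y axis, CPM, 1 panel a gene with its own scale from 0) in the 3 libraries of each embryo group (x axis); grey points are control libraries, red points KI libraries, and bars give mean and SD. The KI points of Snai2 lie above all control points at both stages, from 24.8 to 35.1 CPM against 10.6 to 17.0.

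Snai2, a zinc-finger repressor of epithelial genes, had 10.6, 13.4 and 10.9 CPM in the 3 control libraries of E8.5 and 26.1, 26.8 and 29.7 CPM in the KI libraries. At E9.5 it had 10.8, 16.2 and 17.0 CPM in controls and 24.8, 31.7 and 35.1 CPM in KI embryos. The groups did not overlap at either stage, and the lowest KI library lay above the highest control library of both stages. Snai2 rose 2.37-fold at E8.5 (log2 difference 1.24 ± 0.16 SE, edgeR quasi-likelihood test with Benjamini-Hochberg adjustment over all 15436 genes tested, adjusted p = 0.000177) and 2.08-fold at E9.5 (1.06 ± 0.16, adjusted p = 7.91e-05 by edgeR). The test of whether these differences themselves differed between stages gave −0.19 (adjusted p = 0.695 by edgeR).

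Ednrb, the type B endothelin receptor needed by melanocyte and enteric precursors, had 16.1, 18.2 and 14.6 CPM in E8.5 controls and 24.8, 21.0 and 32.3 CPM in E8.5 KI embryos. The groups did not overlap, with KI library 3 the highest. Ednrb rose by 0.68 ± 0.14 on the log2 scale at E8.5 (1.60-fold, adjusted p = 0.00792 by edgeR). Without KI library 3 the difference was 0.50 (adjusted p = 0.0595 by edgeR), and without control library 3 it was 0.60 (adjusted p = 0.0554 by edgeR), so the call rested on each of these libraries. At E9.5 it had 32.0, 35.8 and 30.2 CPM in controls and 39.1, 44.3 and 33.9 CPM in KI embryos, groups that overlapped, and the difference of 0.26 ± 0.14 missed the threshold (adjusted p = 0.169 by edgeR). The difference between the stages, −0.42 ± 0.20, was itself not called (adjusted p = 0.219 by edgeR).

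Erbb3, a neuregulin receptor with little kinase activity of its own that is used by migrating crest and Schwann cell precursors, had 12.7, 11.4 and 11.8 CPM in E8.5 controls and 12.0, 10.4 and 10.3 CPM in E8.5 KI embryos. At E9.5 controls had 13.0, 15.6 and 10.0 CPM and KI embryos 21.0, 23.5 and 23.1 CPM. The E8.5 groups overlapped, whereas every E9.5 KI library lay above every other embryo library. Erbb3 did not pass at E8.5 (−0.13 ± 0.15, adjusted p = 0.697 by edgeR) and rose 1.75-fold at E9.5 (0.80 ± 0.14, adjusted p = 0.000344 by edgeR). It was the only member whose KI difference was called as differing between stages, by 0.93 ± 0.21 on the log2 scale (adjusted p = 0.00908 by edgeR).

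Foxd3, a forkhead repressor and early crest specifier, had 15.4, 20.5 and 17.3 CPM in E8.5 controls and 26.2, 24.7 and 22.8 CPM in KI embryos, without overlap. At E9.5 the controls had 13.4, 14.4 and 14.3 CPM, and the KI libraries were spread over 31.0, 23.6 and 12.7 CPM, with library 3 below every control. Library 3 of each E9.5 group bears another title number than libraries 1 and 2, and within that number KI lay at 12.7 and control at 14.3 CPM. Neither difference was called (0.47 ± 0.25 at E8.5, adjusted p = 0.343; 0.68 ± 0.25 at E9.5, adjusted p = 0.0619, both by edgeR). Both depended on the fit: with only the 6 libraries of E8.5 in the fit the E8.5 difference of 0.47 was called (adjusted p = 0.0384 by edgeR), and without KI library 3 the E9.5 difference was 0.96 (adjusted p = 0.000126 by edgeR). DESeq2 also called Foxd3 at E9.5 (0.66, adjusted p = 0.0106).

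Sox10, which marks migrating crest and its glia and pigment cells, had 51.7, 63.8 and 67.7 CPM in E8.5 controls and 43.1, 54.5 and 47.2 CPM in KI embryos. At E9.5 it had 47.1, 47.6 and 31.6 CPM in controls and 59.6, 44.3 and 31.0 CPM in KI embryos. The groups overlapped at both stages, and the lowest library of each E9.5 group was library 3, the one with another title number. The E8.5 difference was −0.34 ± 0.25 (adjusted p = 0.533 by edgeR). With the number in the embryo titles as a block (same-numbered E8.5 embryos deviated together), the same value was called (−0.34, adjusted p = 0.0478 by edgeR). At E9.5 it was 0.09 ± 0.25 (adjusted p = 0.82 by edgeR).

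Sox9, Snai1 and Twist1 did not differ by the test at either stage. Sox9, an HMG-box partner of Sox10 in crest and the main regulator of cartilage, lay between 36.2 and 59.4 CPM in all 12 libraries, with log2 differences of −0.13 ± 0.13 and 0.06 ± 0.13. Snai1, the close relative of Snai2, lay between 40.4 and 59.6 CPM, with 0.15 ± 0.11 and −0.17 ± 0.11. Twist1, a basic helix-loop-helix factor of cranial mesenchyme, had 122 to 179 CPM in E8.5 controls and 148 to 167 CPM in KI embryos, and 190 to 215 CPM against 220 to 233 CPM at E9.5. Twist1 groups overlapped at E8.5 and were separate at E9.5, where the difference was 0.14 ± 0.11 (adjusted p = 0.38 by edgeR). Snai1 and Snai2, which share their targets in textbook accounts, thus had different values under the same contrast: 0.15 and 1.24 at E8.5, −0.17 and 1.06 at E9.5.

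Counted over the set, 2 of 8 genes were called at E8.5, both higher, where 5.46% of the 15436 genes tested were called, and 2 of 8 at E9.5, both higher, where 29.5% were called. The E9.5 share is close to that of all genes. The members' median log2 difference was 0.10 at E8.5 and 0.20 at E9.5, against −0.01 and 0.01 over all genes. One member of 8, Erbb3, passed the test for a difference between stages, where 6.63% of genes did.

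Between the stages, 2 of 8 genes rose in control embryos, Twist1 by 0.35 ± 0.11 (adjusted p = 0.0435 by edgeR) and Ednrb by 0.94 ± 0.14 (adjusted p = 8.27e-05 by edgeR), where 24.2% of all genes were called. The Twist1 call was lost when any control library but E8.5 library 2 was left out (adjusted p between 0.0567 and 0.14 by edgeR, the value falling to 0.18 without E8.5 library 1), with only the control libraries in the fit (adjusted p = 0.131) and without the filter on low counts (adjusted p = 0.0505). In KI embryos 4 of 8 changed, where 32.5% of genes did: Twist1 rose by 0.44 ± 0.11, Erbb3 by 0.98 ± 0.15 and Ednrb by 0.52 ± 0.14, and Snai1 fell by 0.31 ± 0.11 on the log2 scale (adjusted p = 0.0113, 5.76e-05, 0.00735 and 0.032 by edgeR). The Snai1 call was lost without E8.5 KI library 1 (adjusted p = 0.163), E9.5 KI library 2 (0.0655) or E9.5 KI library 3 (0.135), and without TMM scaling (0.0832). Twist1 was lost without E8.5 KI library 1 (0.0522) and Ednrb without E8.5 KI library 2 (0.0504) or E9.5 KI library 2 (0.0518).

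Among 75 other crest genes in 9 lists, chosen by their roles with earlier results of these data known, 67 were tested in embryos. Their counts beside the shares of all genes carry that limit. At E8.5 13 were called, 10 higher and 3 lower in KI, where 5.46% of all genes were called and 66.4% of those were higher. Of the 14 listed ligands and receptors 4 were higher, among them Ngfr, the p75 receptor found on crest cells, by 0.69 on the log2 scale, Nrp1, a semaphorin receptor, by 0.55, and Kit, the melanoblast receptor, by 0.48. In the neural plate border list 2 of 9 were higher, Msx2 by 0.58 and Msx1 by 0.37. In the transition list, with 9 genes tested, Vim, the mesenchymal intermediate filament, was 0.59 higher and Itga4, an integrin subunit of migrating crest, was lower, at −0.76. Rxrg was higher by 1.12 and the glial precursor cadherin Cdh19 was lower, at −3.34. Of 9 sensory and autonomic neuron genes 2 were higher, Isl1 by 0.86 and Hand2 by 0.64, and 1 lower, and the list summed to 89.3 to 100.7 CPM in controls and 145.0 to 150.0 CPM in KI. None of 7 cranial mesenchyme genes and none of 5 tested cartilage genes was called.

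At E9.5 29 of the 67 were called, 18 higher and 11 lower, where 29.5% of all genes were called and 49.4% of those were higher. Of the ligands and receptors 7 of 14 were higher, led by Erbb4 (1.06), Ret (0.96) and Kit (0.93), and 1 was lower, and 3 of 6 other crest regulators were higher, Rxrg by 1.00, Ets1 by 0.54 and Tfap2b by 0.52. The plate border list was split, with 3 of 9 higher (Msx2 1.04, Tfap2a 0.86) and 3 lower. Of the sensory and autonomic neuron genes 6 of 9 were lower, among them Prdm12 by −2.42 and Th, tyrosine hydroxylase, by −1.83, and 1 was higher, while the list's summed level overlapped between groups (131.6 to 149.0 CPM in controls, 142.9 to 160.6 CPM in KI). Egr2, which marks myelinating Schwann cells and also hindbrain segments, was higher by 1.20. Alx1 (0.77) and Prrx1 (−0.44) were the cranial mesenchyme genes called, out of 7.

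Markers of other tissues moved in the same embryos. At E8.5 3 of 5 paraxial mesoderm markers were lower in KI (summed level 111 to 148 CPM in controls, 61.9 to 63.3 CPM in KI), 4 of 6 endothelial markers were higher (250.1 to 297 against 332 to 476 CPM) and 2 of 5 heart markers higher (392 to 540.3 against 700.0 to 864 CPM). Summed blood markers were 657 to 1241 CPM in controls and 102 to 185 CPM in KI embryos, with none of 5 called. Neural progenitor markers summed to 422.8 to 460.1 CPM in controls and 340.2 to 378.5 CPM in KI at E8.5. Endothelial markers at E9.5 summed to 262.6 to 296.2 CPM in controls and 332.7 to 379.7 CPM in KI. At E9.5 all 6 neuron markers were lower (182 to 271 against 46.5 to 50.3 CPM), as were all 6 neural progenitor markers (672 to 878 against 401 to 487 CPM) and all 5 paraxial mesoderm markers (129 to 162 against 43.7 to 62.0 CPM), and all 5 heart markers were higher (220.0 to 223 against 500.4 to 789 CPM). Extraembryonic endoderm markers, of a tissue type in which Erbb3 was high in culture, were higher at E9.5 in 3 of 7, with a summed level of 125 to 134 CPM in controls and 289.8 to 368 CPM in KI. Of 6 trophoblast markers, of the culture type in which Erbb3 was highest, 2 were higher at E9.5, with sums that overlapped (58.1 to 92.7 against 79.8 to 108.8 CPM). None of these markers was at or under 3 reads in every library of an embryo group. Their part in the differences of Snai2, Ednrb and Erbb3 was not tested.

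In neural cultures more of the 8 genes were called than in embryos, and the differences had both signs. Depth, genotypes, libraries per group and the share of all genes called differ from the embryos, so these counts do not compare the reach of the KI difference. At D8, 5 of 8 genes differed, where 19.5% of the 16439 genes tested were called: Sox9, Snai1 and Snai2 were lower and Erbb3 and Ednrb higher in KI cells. At D16, 6 of 8 differed, where 46.9% were called: Sox9, Snai1, Twist1 and Erbb3 were lower and Foxd3 and Ednrb higher. The median of the 8 was −0.54 at D8 and −0.66 at D16, against 0.01 and 0.09 over all genes.

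Per length, Ednrb was the most abundant of the set in D8 flox cells at 26.5 RPKM, ahead of Twist1 at 15.5 and Sox9 at 15.4, with Snai1 at 3.22, Foxd3 at 2.85, Snai2 at 1.00, Erbb3 at 0.361 and Sox10 at 0.090 RPKM. Sox10, the marker of migrating crest, had 9 to 19 reads a library at D8 and 3 to 10 at D16. Over both days that is 0.05 to 0.44 CPM, against 31.0 to 67.7 CPM in embryos. The other genes are therefore read in cultures where Sox10 was near the limit of detection.

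**Figure D2:**
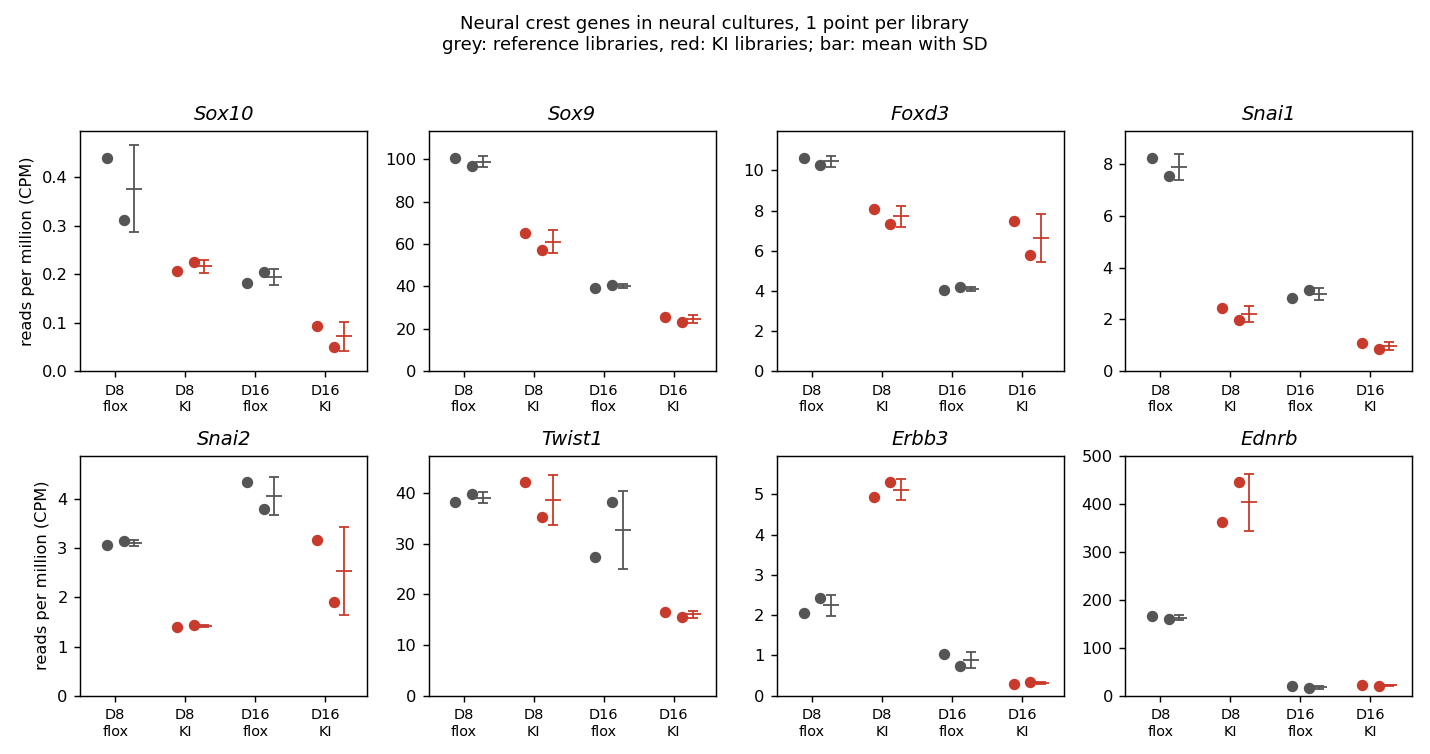
Level of each gene (y axis, CPM, own scale from 0 per gene) in the 2 libraries of each neural culture group (x axis, D8 and D16); grey points are flox libraries, red points KI clones, and bars give mean and SD. Ednrb at D8 lies at 362 and 445 CPM in the KI clones and at 160 and 167 CPM in flox, and Snai1 is lower in KI at both days.

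Ednrb had 167 and 160 CPM in the D8 flox libraries and 362 and 445 CPM in KI clones 27 and 48. By D16 it had 19.9 and 15.6 CPM in flox and 22.3 and 20.4 CPM in KI. Groups were separate at both days, by a small margin at D16. Ednrb rose 2.53-fold in KI at D8 (1.34 ± 0.13, adjusted p = 1.23e-05 by edgeR), and by 0.47 ± 0.13 at D16 (adjusted p = 0.0117 by edgeR), and the D16 difference was smaller by 0.87 on the log2 scale (adjusted p = 0.00307 by edgeR). The D16 call did not hold without flox library 2 (0.31, adjusted p = 0.0923), without clone 27 (0.42, adjusted p = 0.0621), with only the D16 libraries (0.37, adjusted p = 0.0612) or without TMM scaling (0.26, adjusted p = 0.133, all by edgeR).

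Erbb3 had 2.06 and 2.42 CPM in D8 flox and 4.94 and 5.30 CPM in D8 KI, and 1.04 and 0.74 CPM in D16 flox and 0.30 and 0.33 CPM in D16 KI. The KI clones were above both flox libraries at D8 and below both at D16. Erbb3 rose 2.33-fold in KI at D8 (1.22 ± 0.19, adjusted p = 0.000487 by edgeR) and fell by 1.31 ± 0.28 on the log2 scale at D16 (adjusted p = 0.00237 by edgeR). The change of sign was called, with a difference between days of −2.53 ± 0.33 (adjusted p = 0.000156 by edgeR). Fold changes at D16 rest on levels of about 1 CPM or less.

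Snai1 had 8.25 and 7.52 CPM in D8 flox and 2.43 and 1.99 CPM in D8 KI, and 2.82 and 3.13 against 1.09 and 0.87 CPM at D16. Neither day overlapped. Snai1 fell 3.49-fold in KI at D8 (−1.80 ± 0.17, adjusted p = 1.3e-05 by edgeR), the largest KI difference of the 8 genes at that day, and by 1.40 ± 0.19 on the log2 scale at D16 (adjusted p = 0.00012 by edgeR). Snai2 had 3.06 and 3.15 CPM in D8 flox and 1.40 and 1.43 CPM in D8 KI, so that it fell by 1.10 ± 0.23 (adjusted p = 0.00463 by edgeR), opposite in sign to its difference in embryos. At D16 it had 4.34 and 3.79 CPM in flox and 3.16 and 1.90 CPM in clones 27 and 48, and −0.49 ± 0.21 was not called (adjusted p = 0.0723 by edgeR), though it was without clone 27 (−0.88, adjusted p = 0.00432) and without TMM scaling (−0.69, adjusted p = 0.0232).

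Sox9 had 101 and 97.0 CPM in D8 flox, its highest group of the study, and 65.0 and 57.1 CPM in D8 KI. At D16 it had 39.4 and 40.8 CPM in flox and 25.7 and 23.3 CPM in KI. Both days were separate, and Sox9 fell by 0.66 ± 0.09 at D8 (adjusted p = 0.000228 by edgeR) and by 0.51 ± 0.09 at D16 (adjusted p = 0.000906 by edgeR), without a called difference between days (0.15, adjusted p = 0.395 by edgeR). In neural cultures Sox9 is also a gene of neural stem cells and glia, not only of crest.

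Foxd3 had 10.6 and 10.3 CPM in D8 flox and 8.08 and 7.33 CPM in D8 KI, and 4.01 and 4.18 against 7.49 and 5.79 CPM at D16. The KI clones lay below flox at D8 and above it at D16. The D8 value of −0.41 ± 0.14 missed the threshold (adjusted p = 0.0621 by edgeR), although it was called with only the D8 libraries in the fit (adjusted p = 0.0192), and Foxd3 rose by 0.90 ± 0.15 at D16 (adjusted p = 0.000414 by edgeR). The difference between days, 1.31 ± 0.20, was called (adjusted p = 0.000468 by edgeR).

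Twist1 had 38.3 and 39.8 CPM in D8 flox and 42.1 and 35.2 CPM in D8 KI, groups that overlapped (0.02 ± 0.14, adjusted p = 0.963 by edgeR). At D16 it had 27.3 and 38.1 CPM in flox and 16.6 and 15.6 CPM in KI, and fell by 0.82 ± 0.15 (adjusted p = 0.000739 by edgeR). The difference between days was −0.84 ± 0.20 (adjusted p = 0.00787 by edgeR), a call that was lost without the D8 library of clone 27 (−0.71, adjusted p = 0.0519 by edgeR). Sox10 had 0.44 and 0.31 CPM in D8 flox, 0.21 and 0.23 CPM in D8 KI, 0.18 and 0.21 CPM in D16 flox and 0.09 and 0.05 CPM in D16 KI. Its summed reads gave a flox to KI ratio of 1.71 at D8 (95% exact interval 0.963 to 3.13) and of 2.72 at D16 (1.13 to 7.24), intervals that cover counting error only, and neither day was called (adjusted p = 0.244 and 0.0862 by edgeR).

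Of the 8 genes, 4 passed the test for a KI difference that differs between D8 and D16 (Foxd3, Twist1, Erbb3 and Ednrb), where 33.2% of genes did. The plot of KI differences places them beside the other comparisons.

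**Figure D3:**
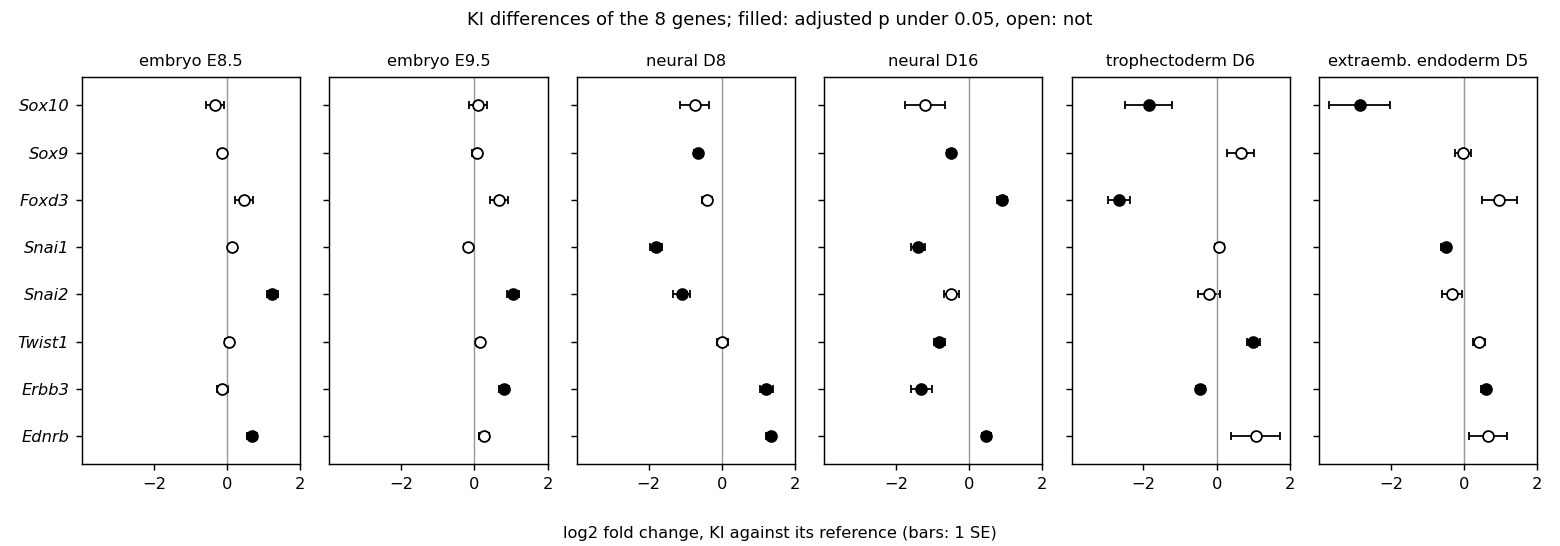
Log2 difference of KI from its reference (x axis, bars 1 SE) for the 8 genes (rows) in the embryo, neural, TE and ExEn comparisons (panels); filled marks are called at an adjusted p under 0.05. Snai2 stands at 1.24 and 1.06 in the embryos and at −1.10 in D8 neural cells, and Erbb3 changes sign between D8 (1.22) and D16 (−1.31).

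From D8 to D16 most of the members called were lower at D16, while the share called in flox was not above that of all genes. Over these days the neural progenitor markers summed to 1186 to 1201 CPM in D8 flox and 194 to 210 CPM in D16 flox. The neuron markers summed to 1518 to 1540 CPM and 3510 to 3818 CPM. The part of these cell types was not tested. In flox cells 5 of 8 fell from D8 to D16 and none rose, where 77.1% of all genes were called and 49.8% of those were higher. The falls were Sox9 by 1.27, Foxd3 by 1.32, Snai1 by 1.38, Erbb3 by 1.28 and Ednrb by 3.16 on the log2 scale. Snai2 had 0.43 (adjusted p = 0.0802 by edgeR) and was called, at 0.42, with the line as a block (adjusted p = 0.0432) and, at 0.43, with only the flox libraries in the fit (adjusted p = 0.0196). Twist1 had −0.22 (adjusted p = 0.171 by edgeR), and −0.49 without D16 flox library 2 (adjusted p = 0.00454). In KI cells 6 of 8 fell and 1 rose, where 79.9% of all genes were called and 51.0% of those were higher. Ednrb fell by 4.04, Erbb3 by 3.81, Sox9 by 1.11, Twist1 by 1.06 and Snai1 by 0.97, Snai2 rose by 1.03, and Foxd3 had −0.01 (adjusted p = 0.935 by edgeR). Sox10 fell by 1.39 (adjusted p = 0.0299 by edgeR), from 20 reads over both clones at D8 to 8 at D16, a ratio of 3.08 with an exact interval of 1.3 to 8.09, but was not called with the line as a block (adjusted p = 0.0512), by DESeq2 (adjusted p = 0.157), or without the D8 library of clone 27 (0.0632) or clone 48 (0.101) or the D16 library of clone 48 (0.152).

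Of the 75 listed crest genes 67 were tested in the neural cultures. At D8 35 were called, 10 higher and 25 lower in KI, where 19.5% of all genes were called and 32.4% of those were higher. At D16 32 were called, 8 higher and 24 lower, where 46.9% of all genes were called and 57.9% of those were higher with TMM scaling and 30.1% without it. At D8 5 of 6 other crest regulators were lower, led by Rxrg (−1.54), Ets1 (−1.15) and Sox8 (−1.06), a SOX factor of the same subgroup as Sox9 and Sox10. Cranial mesenchyme genes were lower in 4 of 7 and higher in none, among them Alx4 at −2.42 and Alx1 at −1.35. Of the ligands and receptors 5 of 14 were lower, among them Ret (−2.11), Ngfr (−1.71) and Ednra, the type A endothelin receptor (−1.41), and 2 higher. Of the plate border list 3 of 9 were higher, among them Msx2 by 2.68, and Msx1 was lower, at −0.74. Of the Schwann cell and satellite glia list 1 of 5 tested was called, Fabp7, a lipid binding protein also of radial glia, at −1.55, and the list's 7 genes summed to 108.4 to 109 CPM in flox and 34.9 to 45.6 CPM in KI. Sensory and autonomic genes were lower in 3 of 9, among them Th (−2.60), and higher in 1, with sums of 150.2 to 151 against 96.96 to 124 CPM. In the transition list Twist2 (−2.55) and Cdh11 (−0.86) were lower and Cdh6 (0.77) higher.

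At D16 cranial mesenchyme genes were again lower in 4 of 7, among them Alx1 by −1.44 and Prrx1 by −1.20. Ligands and receptors were lower in 7 of 14, including the Ednrb ligand Edn3 (−2.57), Ngfr (−1.75) and the Erbb3 partner Erbb2 (−1.34). The transition list had 5 of 9 lower (Twist2 −2.33, Itga4 −1.69, Cdh11 −1.20) and 2 higher. Msx2 was lower (−2.52). Sensory and autonomic genes were split, with 2 of 9 lower, among them Th (−2.79), and 3 higher. Of the melanocyte genes, 3 of 6 were tested in these cultures and none was called at D16, and Dct was lower at D8 (−1.82).

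Other cell types also differed in these cultures. At D8 5 of 6 neuron markers were lower in KI (summed 1518 to 1540.0 CPM in flox, 982 to 1151 CPM in KI), all 6 endothelial markers were lower (109.6 to 111 against 17.8 to 23.1 CPM) and 5 of 6 tested extraembryonic endoderm markers were lower (111 to 112 against 35.2 to 38.1 CPM). Neural progenitor markers were 3 higher and 1 lower of 6, with nearly equal sums (1186 to 1201 against 1226 to 1229 CPM). Of the oligodendrocyte lineage markers, a cell type that also uses Sox10, 4 were higher and 2 lower, and their sum was 44.0 to 44.9 CPM in flox and 36.1 to 41.8 CPM in KI. At D16 all 6 neuron markers were higher in KI (3510.0 to 3818 against 5288 to 5804 CPM), and 4 of 6 astrocyte and radial glia markers, the cells in which Ednrb and Sox9 are also found, were lower (634 to 649 against 432 to 465 CPM). Summed endothelial markers were 44.3 to 47.3 CPM in D16 flox and 2.07 to 4.92 CPM in D16 KI, with 1 of 6 called, lower, and summed extraembryonic endoderm markers were 76.0 to 77.0 against 10.8 to 21.3 CPM, with 3 of 6 tested lower and 1 higher. The part of these cell types in the members' differences was not tested. At D16 57.9% of all called genes were higher in KI with TMM scaling and 30.1% without it, with all-gene medians of 0.09 and −0.12. No called difference of the 8 genes changed sign under either scaling.

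In TE cultures 4 of 8 genes differed, where 50.9% of the 15532 genes tested were called. Foxd3 had 11.2 and 11.4 CPM in flox and 1.38 and 2.10 CPM in KI, and fell 6.33-fold (−2.66 ± 0.30, adjusted p = 4.8e-06 by edgeR), exceeded among the tested KI differences of the 8 genes only by that of Sox10 in ExEn, which rests on few reads. Twist1 had 6.01 and 5.91 CPM in flox and 10.4 and 13.0 CPM in KI and rose by 1.00 ± 0.19 (adjusted p = 0.000621 by edgeR). Erbb3 was higher here than in any other group of the study, with 111 and 113 CPM in flox and 80.1 and 80.7 CPM in KI, and fell by 0.44 ± 0.11 (adjusted p = 0.0068 by edgeR). For each of the 3 genes the groups were separate, which describes 2 libraries a group and is not a test.

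Sox10 in TE had 1.48 and 0.84 CPM in flox and 0.36 and 0.25 CPM in KI, 58 reads against 17, a ratio of 3.73 (95% exact interval 2.14 to 6.84). It passed the filter on low counts through flox libraries alone, so its call is not independent of the filter. The fitted difference of −1.86 ± 0.63 was called (adjusted p = 0.0244 by edgeR), but not by DESeq2 (adjusted p = 0.065) nor without flox library 1 (0.184), clone 27 (0.0632) or clone 48 (0.119). Snai1 (12.3 to 14.3 CPM over all 4 libraries), Snai2 (1.74 to 2.38 CPM) and Sox9 (1.56 to 3.30 CPM) were not called, and Ednrb was at 0.12 to 0.55 CPM. In the same comparison 5 of 6 trophoblast markers were higher and 1 lower in KI, and 5 of 6 pluripotency markers, cells in which Foxd3 is also expressed, were lower. The higher trophoblast markers include Cdx2 (1.92, adjusted p = 1.39e-08 by edgeR), the gene that the lentivirus delivers. Its reads may include the transgene, so it is no plain marker here, and the inducer may itself differ between the groups. The part of these markers and of the Cdx2 level in the differences of Foxd3, Twist1 and Erbb3 was not tested. Of 62 listed crest genes tested, 21 were higher and 13 lower, where 50.9% of all genes were called. Among them 4 of 7 cranial mesenchyme genes were higher (Dlx2 3.70, Dlx1 3.36, Alx1 2.80) and 1 lower (Alx4 −1.75, named after its value was seen), and of 8 plate border genes 5 were higher (Zic1 3.04, Msx1 2.86, Tfap2a 2.72) and 2 lower. Of 14 ligands and receptors 6 were lower, among them Kit (−1.47) and the Erbb3 partner Erbb2 (−1.39), and 4 higher, among them Ednra (1.63). In the cartilage list, with 5 tested, Col2a1 (−2.0) and Col11a2 (−1.21) were lower and Matn1 (1.32) higher, and of 5 tested other crest regulators only Lmo4 was called, at −1.46.

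In ExEn cultures 3 of 8 were called, where 35.5% of genes were. Snai1 had 30.6 and 33.3 CPM in flox and 23.3 and 22.7 CPM in KI and fell by 0.50 ± 0.12 (adjusted p = 0.00458 by edgeR), a call lost without flox library 2 (adjusted p = 0.0621). Erbb3 had 27.2 and 24.9 CPM in flox and 46.7 and 33.2 CPM in KI and rose by 0.59 ± 0.13 (adjusted p = 0.00361 by edgeR). Snai1 and Erbb3 groups were separate. As in TE, Sox10 passed the filter on low counts through flox libraries alone, so its call is not independent of the filter. Sox10 had 0.68 and 0.77 CPM in flox and 2 reads in each KI clone, a ratio of 7.41 over summed reads (95% exact interval 2.6 to 29.0), and its call (adjusted p = 0.0161 by edgeR) was lost whichever of the 4 libraries was left out (adjusted p between 0.0614 and 0.0998). Twist1 had 32.2 and 34.6 CPM in flox and 36.9 and 53.4 CPM in KI, and 0.41 ± 0.16 was not called (adjusted p = 0.0636 by edgeR), while without clone 27 it was 0.65 (adjusted p = 0.00187) and without the filter on low counts it passed (adjusted p = 0.035). All 7 extraembryonic endoderm markers were lower in these KI cells, with a summed level of 870.1 to 893 CPM in flox and 227 to 232 CPM in KI, and 3 of 6 trophoblast markers were higher and 1 lower (summed 172 to 179 against 471 to 678 CPM), among them Krt7 (2.36), Tfap2c (2.14) and Eomes (−2.74). The part of these cell types in the values of Snai1 and Erbb3 was not tested. Of 62 listed crest genes 26 were called, 16 higher and 10 lower, where 50.9% of all called genes were higher.

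In the EB course a single day had 1 flox library, so a day's difference has no test and is given as a log2 ratio of CPM + 0.5 to that library. Averaged over the 3 days, none of the 8 genes was called by edgeR or by DESeq2, where 0.707% of genes were by edgeR. At an unadjusted p under 0.05 edgeR found 1 member, Snai1 (−1.05 ± 0.43, adjusted p = 0.284), among 2623 of the 15991 genes tested. Without the flox ESC library Snai1 was called (−1.70, adjusted p = 0.0101 by edgeR).

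Snai1 had 5.29 CPM in flox ESCs and 9.97 and 10.1 CPM in clones 27 and 48, then 59.0 against 21.7 and 22.2 CPM at day 4, and 24.1 against 5.68 and 6.50 CPM at day 10. The ratios at day 4 were −1.42 and −1.39 and at day 10 −1.99 and −1.81, lower in both clones. Foxd3 had 52.1 CPM in flox ESCs and 29.7 and 29.5 CPM in the clones, and at day 4 19.1 CPM against 64.0 and 59.4 CPM, ratios of 1.72 and 1.61. By day 10 Foxd3 was below 1 CPM in all 3 libraries. Snai2 at day 10 had 23.7 CPM in flox and 53.3 and 45.9 CPM in the clones (1.15 and 0.94). Snai1 and Foxd3 at day 4 and Snai1 at day 10 were the members at least 2-fold from flox in both clones with the same sign. That is 2, 1 and none of the 8 at days 4, 10 and 0, where 5.88%, 7.42% and 7.68% of genes with at least 1 CPM in a library of that day were. Members under 1 CPM in every library of a day could not count. These were Sox10 on each day, Ednrb at days 0 and 4, Sox9 and Snai2 at day 0 and Foxd3 at day 10. Markers of other cells moved with these values. At day 4 the 6 pluripotency markers summed to 1221 CPM in flox and 1541 to 1602 CPM in KI, the 5 heart markers to 77.8 against 9.86 to 9.91 CPM and the 6 endothelial markers to 228 against 34.8 to 40.4 CPM. At day 10 heart markers summed to 1343 CPM in flox and 263 to 367 CPM in KI. Their part in the values of Foxd3 and Snai1 was not tested.

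**Figure D4:**
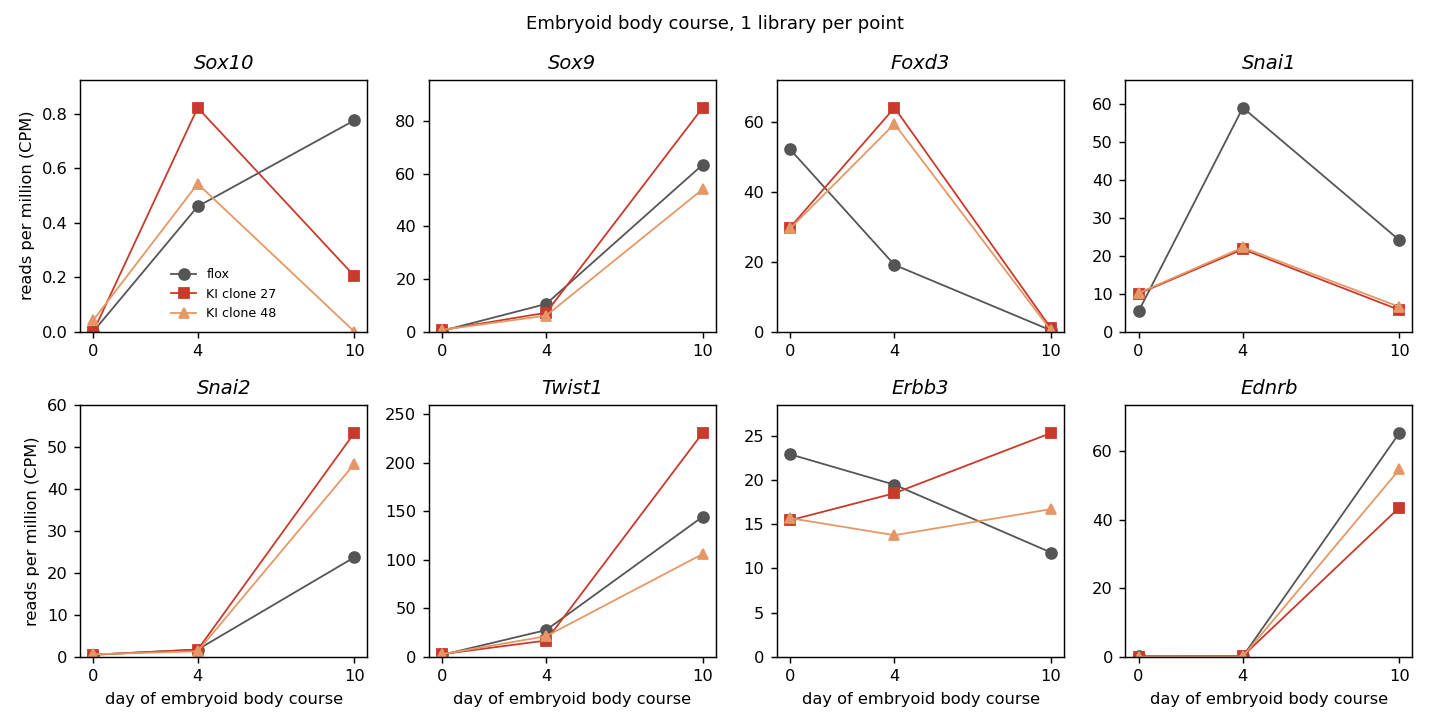
Level of each gene (y axis, CPM, own scale from 0 per gene) against day of EB differentiation (x axis, days 0, 4 and 10), with 1 line for the flox library series and 1 for each KI clone. Foxd3 at day 4 lies at 19.1 CPM in flox and at 64.0 and 59.4 CPM in the clones, and Snai1 at day 4 at 59.0 CPM against 21.7 and 22.2 CPM.

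Within the KI clones the genes moved mostly upward from day 0 to day 4 and in both directions after that. Summed pluripotency markers in these clones were 3834 to 4167 CPM at day 0, 1541 to 1602 CPM at day 4 and 109.5 to 132.6 CPM at day 10. Summed heart markers were 9.86 to 9.91 CPM at day 4 and 262.5 to 367 CPM at day 10. Summed endothelial markers were 34.8 to 40.4 CPM and 405.3 to 485.8 CPM on these days. The part of these cell types in the members' changes was not tested. From day 0 to day 4, 6 of 8 rose and none fell, where 50.3% of the 15676 genes tested were called: Sox9 by 3.37, Twist1 by 2.72, Snai2 by 1.35, Snai1 by 1.03, Foxd3 by 0.96 and Sox10. The Foxd3 call was lost without the day 0 library of clone 27 (adjusted p = 0.054) or of clone 48 (0.0517) or the day 4 library of clone 27 (0.0555). Sox10 had 30 reads at day 4 and 1 at day 0 over both clones, a ratio of 32.3 with an exact interval of 5.37 to 1320.0, and its call was lost whichever library was left out (adjusted p between 0.0639 and 0.112 by edgeR), with a fitted value between 3.76 and 6.95. From day 4 to day 10, 7 of 8 changed, where 73.3% of genes did: Snai2 rose by 4.96, Sox9 by 3.32 and Twist1 by 3.06, and Foxd3 fell by 6.80 and Snai1 by 1.93. In this fit Sox10 passed the filter on low counts through its day 4 libraries alone, and Ednrb through its day 10 libraries alone. Their calls against these days, also within the counts of members, are thus not independent of the filter. Without a clone's day 10 library Foxd3 ranged from −7.78 to −6.14 on the log2 scale, and Twist1 was 2.40 without that of clone 27. Ednrb had 7 reads at day 4 and 2162 at day 10, a ratio of 312 (151 to 777), and Sox10 went from 30 to 4 reads, all 4 in clone 27, a ratio of 7.43 (2.62 to 29.0) that DESeq2 did not call (adjusted p = 0.14), nor edgeR without the day 4 library of clone 27 (0.157) or clone 48 (0.0828) or the day 10 library of clone 48 (0.0549). The fitted Sox10 value ran from −6.96 to −1.79 on the log2 scale, without the day 10 library of clone 27, which leaves a group at 0 reads and so a value that is no bound, and of clone 48. Erbb3 was not called, at −0.05 and 0.30 (adjusted p = 0.886 and 0.255 by edgeR), although 0.57 was called from day 4 to day 10 without the day 10 library of clone 48 (adjusted p = 0.00434).

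Across all 18 groups each gene had its own order of levels, shown in the map of group means. Sox10 was highest in the 4 embryo groups, 42.1 to 61.1 CPM, and the next group, TE flox, had 1.16 CPM. Each embryo group overlapped its neighbour in this order, but the controls of E8.5 (51.7 to 67.7 CPM) and E9.5 (31.6 to 47.6 CPM) did not overlap. Twist1 was highest in embryos and day 10 EBs, from 144 to 227 CPM, with the next group, ExEn KI, at 45.2 CPM. Snai1 was highest in flox EBs of day 4 at 59.0 CPM, within the range of the embryos (44.0 to 52.2 CPM) by their spread, and lowest in D16 neural KI at 0.98 CPM. Snai2 was highest in KI EBs of day 10 (49.6 CPM), then in both KI embryo groups (30.5 and 27.5 CPM), all above their own references.

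Sox9 was highest in D8 flox neural cells (98.9 CPM), after which 10 groups lay between 39.3 and 69.6 CPM, each overlapping its neighbour. Foxd3 was highest in KI EBs of day 4 (61.7 CPM) and ESCs (52.1 CPM in flox and 29.6 CPM in KI), ahead of the embryos, and fell under 1 CPM in ExEn and day 10 EBs. Erbb3 was highest in TE (112 and 80.4 CPM) and ExEn (40.0 and 26.0 CPM), ahead of the embryos, and lowest in D16 neural cells. Ednrb was highest in D8 neural cells, 404 CPM in KI and 163 CPM in flox, then in day 10 EBs (65.2 and 49.1 CPM) and embryos, and was at or under 0.49 CPM in ESCs, day 4 EBs and TE. Of the 17 pairs of neighbouring groups in each gene's order, between 5 (Snai1) and 9 (Sox9) overlapped in their libraries, where a group of 1 library has no spread.

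**Figure D5:**
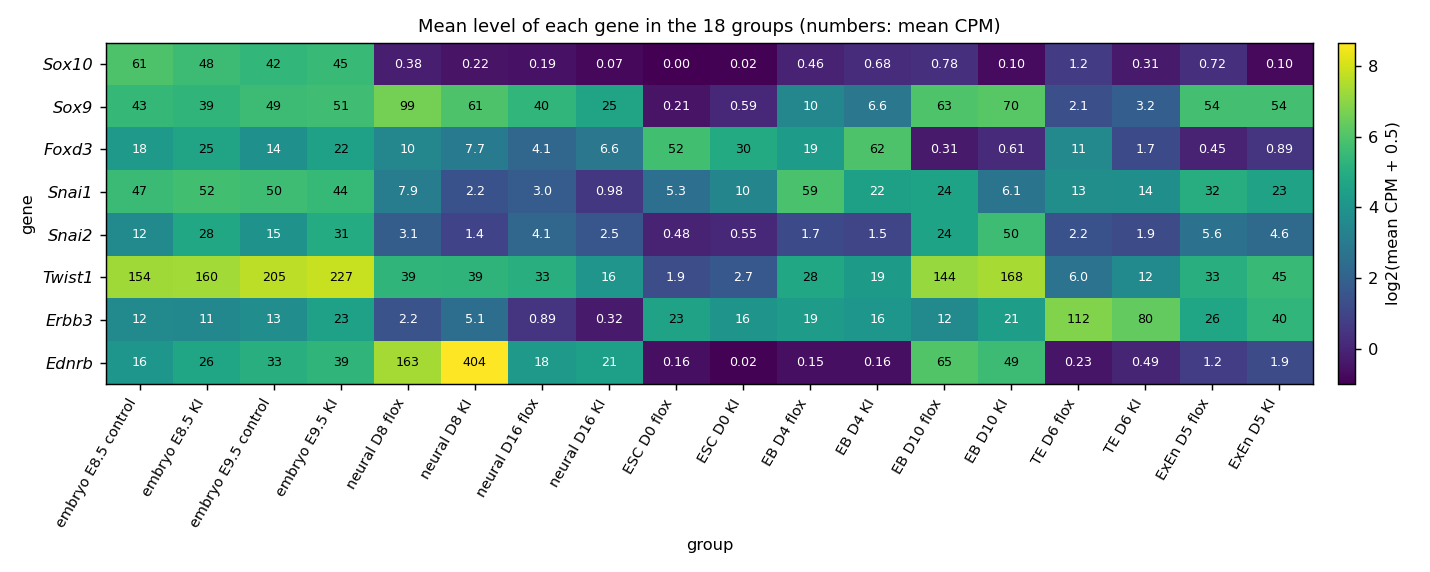
Mean level of the 8 genes (rows) in the 18 groups (columns); colour gives log2(mean CPM + 0.5) and the number in each cell the mean CPM. Sox10 is high in the 4 embryo groups alone, while Erbb3 peaks in TE flox (112 CPM) and Ednrb in D8 neural KI (404 CPM).

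The 8 genes did not share a profile over the 18 groups. On log2(CPM + 0.5) of the group means, the closest pairs were Snai2 with Twist1 (Pearson r = 0.90), Sox9 with Twist1 (0.86) and Sox9 with Ednrb (0.79), and the most opposed were Erbb3 with Ednrb (−0.56), Sox9 with Foxd3 (−0.48) and Sox9 with Erbb3 (−0.41). Sox10 was nearest to Snai1 (0.66) and Twist1 (0.65). Among the 16118 other genes with at least 1 CPM in a group, the most similar to Sox10 were Rax (0.981), Fezf1 (0.979) and Foxi2 (0.971), and those to Sox9 Ccnd2 (0.984), Fbxl7 (0.974) and Zeb2 (0.965). The most similar to Snai2 were Hey2 (0.97), Twist2 (0.956) and Tcf21 (0.943), and to Twist1 Shh (0.955), Foxc1 (0.948) and Scara3 (0.942). For Foxd3 they were Mettl17 (0.948), Park7 (0.929) and Aarsd1 (0.929), and for Snai1 Pheta2 (0.894), Arhgdia (0.867) and Mogat2 (0.864). For Erbb3 they were Ap1m2 (0.972), Cc2d1b (0.967) and Llgl2 (0.959), and for Ednrb Foxp2 (0.95), F930015N05Rik (0.939) and 4921531C22Rik (0.939). These values describe 18 group means that share culture types and cell lines, so they are not independent points and carry no p.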

How the data were processed

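RNA was measured in 37 libraries of 18 groups, and 63 other samples of the series were not analysed here: chromatin immunoprecipitation, input and ATAC samples and 1 RNA library, of Mll3-/-;Mll4-/- neural cells at D8. The authors deposited 1 table a library with 29082 transcripts, each with its count of reads and its RPKM, per the file headers. The submitters' processing notes name bcl2fastq, Bowtie2, STAR, SICER 1.1 and mm9; which of them made these tables, from which annotation, and whether strand was used is not given in the sources used here. Of the transcripts, 28436 were matched to a RefSeq gene (GRCm38.p6), and the 646 unmatched, with 1.25 to 2.13% of a library's reads, kept their own entries. Each gene was read from its transcript with the most reads. Only Ednrb among the 8 had more than 1 transcript in the tables, and no gene in the tables overlapped a member. CPM uses the total of all gene-level entries, and intervals and floors cover counting error only.

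Differences were tested on the deposited counts with edgeR 4.0.16 in R 4.3.3 (TMM scaling, filterByExpr with a minimum of 10 reads, robust quasi-likelihood, Benjamini-Hochberg over all genes tested, called at an adjusted p under 0.05), in 1 fit for each of the embryo, neural, TE with ExEn, and EB sets, and 1 for the KI clones of the EB course. The scripts were tested on simulated data. No pair of replicate libraries agreed within sampling noise (chi-square per degree of freedom 1.5 to 54.83). Alternatives were DESeq2 1.42.0, no TMM scaling, no low-count filter, transcripts summed, only the libraries compared, leaving out each library, and the replicate block. Named genes were the 8 members, up to 3 called genes of a list with the largest log2 difference, and the 3 genes most like each member in profile. Some genes of the lists are not reported here by name. The members and the lists of 75 crest genes and 64 markers of 11 cell types were chosen with earlier results of these data known. Per the pairing check, same-numbered E8.5 embryos deviated together (r of 0.30, 0.35 and 0.15), E9.5 embryos, where 1 number is shared by 2 embryos of each group and another by 1 of each, gave between 0 and 0.17, with 3 of 5 values under 0.1, and the cultured lines, the same at each day, gave 0.10 to 0.39.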

Additional observations from a re-analysis of the deposited data

Results flagged for a closer look

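The KI difference changed with stage or day in 5 tests of the difference itself (the interaction term in edgeR), which is what singled these results out. For Erbb3 the KI difference was larger at E9.5 than at E8.5 by 0.93 on the log2 scale (adjusted p = 0.00908 by edgeR), with all 3 E9.5 KI libraries above all 9 other embryo libraries. Between neural D8 and D16 the KI difference moved by 1.31 for Foxd3 (adjusted p = 0.000468 by edgeR), by −0.84 for Twist1 (adjusted p = 0.00787 by edgeR), by −2.53 for Erbb3 (adjusted p = 0.000156 by edgeR) and by −0.87 for Ednrb (adjusted p = 0.00307 by edgeR). Erbb3 is in both groups of results, and in neural cells its KI difference had opposite signs at the 2 days. No group had 4 or more libraries, so no single library was tested as standing apart within its group.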

How the results depend on the processing

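Over 120 differences of the 8 genes, 1303 alternative values were computed: 1196 kept their direction and side of the threshold, 46 lost and 19 gained a call, and 42, none of them of a called difference, changed sign. Of 58 called differences 44 held under every alternative run, and 52 under every one but leaving out a library.

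With the replicate block, the E8.5 comparison called 1321 genes in place of 843 and 3 members, Sox10 (−0.34) in addition, while flox D16 against D8 called 6 members with Snai2 (0.42) added and KI D16 against D8 called 6, without Sox10 (−1.39). The pairing by block changed no other member's call. At E9.5, where 2 numbers are shared between the groups but not every correlation reached the level set for pairing, 2 members were called with the block too, and Foxd3 had 0.61 (adjusted p = 0.0618 by edgeR).

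Without the low-count filter 1 member was called between stages in control embryos. Without TMM scaling the sign changed for Twist1 in neural D8 (−0.02), Sox9 in the neural KI difference between days (−0.01) and in ExEn (0.01), and Erbb3 from EB day 0 to 4 (0.05). Called genes that were higher went from 57.9% to 30.1% at neural D16, from 57.8% to 37.6% for the neural KI difference between days, from 50.2% to 64.8% between stages in control embryos and from 49.0% to 62.5% in KI embryos. The cause was not tested. Calls gained and not given above were Sox10 between control stages (−0.58, only the libraries compared), Sox9 between KI stages (0.38 without TMM scaling, 0.31 with only the libraries compared), Sox10 from D8 to D16 in flox (−0.95 without TMM scaling) and Snai2 in the neural KI difference between days (0.91 without the D16 library of clone 48).

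Leaving out a library moved the number of members called to 1 to 2 at E8.5, 1 to 2 between control stages, 2 to 4 between KI stages, 1 to 3 in ExEn and 0 to 1 in the EB average, each with fewer libraries in the fit. Uncalled values changed sign in these ranges: at E8.5 Twist1 −0.1 to 0.17; at E9.5 Sox10 −0.18 to 0.3 and Sox9 −0.09 to 0.21; in the KI difference between stages Foxd3 −0.1 to 0.5 and Twist1 −0.04 to 0.24. Between control stages Sox9 ran from −0.04 to 0.25, Snai1 from −0.09 to 0.1 and Erbb3 from −0.12 to 0.18, and between KI stages Sox10 from −0.45 to 0.04, Foxd3 from −0.53 to 0.09 and Snai2 from −0.03 to 0.19. In neural cells Twist1 ran from −0.11 to 0.14 at D8 and from −0.49 to 0.01 with day in flox, and Foxd3 from −0.18 to 0.12 with day in KI. Snai1 in TE ran from −0.07 to 0.16 and Sox9 in ExEn from −0.4 to 0.28. In the EB average, which has 1 flox library a day, Sox10 ran from −2.47 to 0.66, Sox9 from −0.31 to 0.28, Foxd3 from −0.6 to 1.58, Snai2 from −0.08 to 0.85, Twist1 from −0.27 to 0.27 and Erbb3 from −0.45 to 0.26. Erbb3 in KI clones ran from −0.27 to 0.15 from day 0 to 4 and from −0.03 to 0.57 from day 4 to 10.

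Counts over all genes moved by more than 1.5 times under DESeq2 in the EB average (773 in place of 113) and when a library was left out at E8.5 (363 to 755 in place of 843), in the KI difference between stages (607 to 1175 in place of 1024), neural D8 (1896 to 2362 in place of 3202), the neural KI difference between days (3621 to 6038 in place of 5450), ExEn (3641 to 4967 in place of 5520), the EB average (26 to 356) and from day 0 to 4 (4982 to 5398 in place of 7882). Depth limits Sox10 in every culture and Ednrb in ESCs, day 4 EBs and TE, where a library holds few reads of them.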
